A study of Caenorhabditis elegans with 4 samples.

Results

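Long stretches of the X chromosome without a DPY-26 peak in the series-level list are described here, from ChIP-seq (sequencing of DNA precipitated with an antibody to a chromatin protein) in wild-type Caenorhabditis elegans embryos. The embryos were of mixed stages, of the strain N2 and grown at 20 °C. The series-level peak list held 9008 peaks on the X, none of which overlapped another, and the 9007 stretches between neighbouring peaks were measured. The intervals of interest were the 409 stretches of 5000 bp or longer, 4.54% of the X stretches by number. The labels give 2 ChIP libraries, made with an affinity-purified rabbit polyclonal antibody against DPY-26, and 2 input DNA libraries, all from a mixed population of males and hermaphrodites. Peak lists of the ChIP libraries were used, with 1235 X peaks in replicate 1 and 2542 in replicate 2. Nothing in the labels says whether the replicates came from separate cultures. No read counts are given, so the depth behind a peak, and behind the lack of one, is unknown.

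Condensins are rings of protein that fold and compact chromosomes, and DPY-26 closes such a ring as its kleisin subunit. In C. elegans it serves in condensin I on all chromosomes and in the dosage compensation complex, which binds both X chromosomes of hermaphrodites and lowers their transcription. That complex is known to load at recruitment sites on the X and to spread from them to many further sites, often at promoters of active genes. It does not assemble on the X of males.

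The series-level list alone chose the intervals, so their number, length and position and the scores of the peaks beside them are descriptions and were not tested. The sources used here do not say how the series-level list was made, and the replicate lists may have entered it. Replicate values are therefore also given without a test. A two-sided sign test over 2 libraries cannot give a p below 0.5.

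The intervals took up 2912666 bp, which is 16.4% of the X as spanned by the peaks and 20.7% of its bases outside peaks. Their median length was 6518 bp, with quartiles of 5507 and 7887 bp, against a median of 1020 bp over all X stretches. Most were only a few kilobases above the limit. At least 7500 bp was reached by 123 intervals, at least 10000 bp by 28, and at least 20000 bp by 4. The limit of 5000 bp cut through a continuous range of lengths. The shortest members measured 5004 bp (X:16706215-16711218) and 5006 bp (X:12009966-12014971), and the longest stretches left out measured 4988 bp each (X:916114-921101 and X:16953167-16958154). Replicate 2 peaks covered 0 and 613 bp of these members and 1064 and 0 bp of the stretches left out, while replicate 1 peaks covered none of the 4. Coordinates are on WormBase WS220, the build that the file headers name, and positions stand in place of gene names, since an annotation of that build was not used here.

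**Figure D1:**
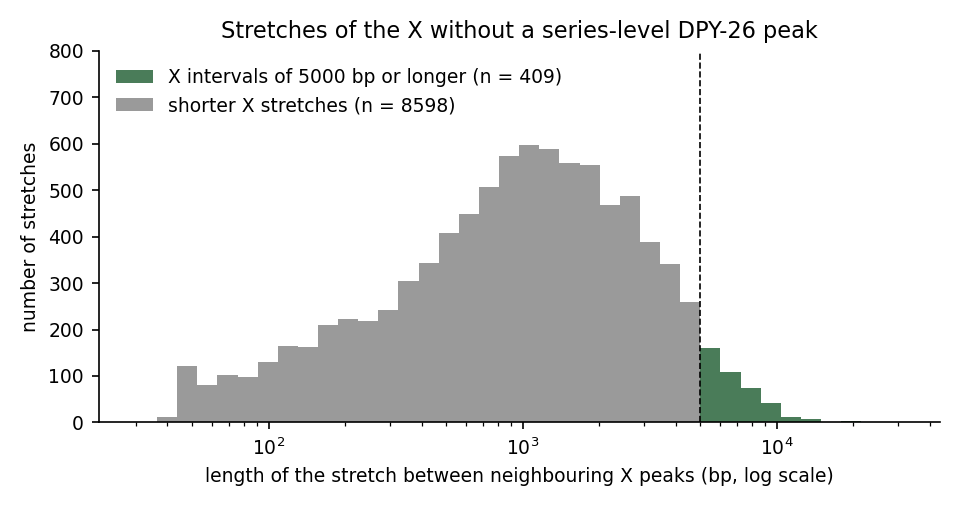
Lengths of the stretches between neighbouring X peaks of the series-level list, in bp on a log scale, with the number of stretches on the vertical axis. The 409 intervals of 5000 bp or longer (green) form the right tail of the same distribution as the 8598 shorter stretches (grey), and the dashed line marks 5000 bp.

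The same rule applied to an autosome took nearly the whole chromosome. Stretches of 5000 bp or longer made up between 97.6% of chromosome III and 99.5% of chromosome II, as spanned by their peaks, and the median autosomal stretch ranged from 49672.5 bp on chromosome III to 60604.5 bp on chromosome V. The longest X interval, at 30298 bp, was thus shorter than the median stretch of each of the 5 autosomes. The first X peak began at base 1, and the last ended at base 17718897. By the rule an interval lies between peaks, so none could lie at either end.

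The 10 longest intervals were spread over the X, but 4 of them lay within its first 300 kb. The longest, X:199269-229566, measured 30298 bp. Replicate 1 peaks covered none of it and replicate 2 peaks covered 1293 bp, or 4.27%. The peaks on its left and right scored 21.22 and 48.15 in the series-level list, both above the X median of 7.10. The scores are the authors' own values on a scale that no header or label states, and they were compared only within a list.

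The interval second in length, X:59606-86837, measured 27232 bp and was bounded by weak peaks with scores of 4.53 and 4.15. It was the only interval among the 10 that held a whole replicate 2 peak, and 4048 bp of it were covered. The next in length, X:259486-280897, measured 21412 bp, with 551 bp covered by replicate 2. The fourth, X:9347984-9368670, measured 20687 bp near the middle of the X. A replicate 1 peak lay 10 bp from its edge, and the peak on its left scored 61.46.

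The other 6 of the 10 measured between 13704 and 19362 bp. They lay at X:6522997-6542358, X:4044716-4061318, X:17256599-17271485, X:13068763-13083286, X:15956765-15970836 and X:242572-256275. Replicate 1 covered 0 bp of any of the 10 longest, and replicate 2 covered between 0 and 14.9% of their lengths. The interval X:17256599-17271485, of 14887 bp, was the longest that no peak of either replicate touched.

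The intervals were free of series-level peaks only, and the replicate lists differed in how they met them. Replicate 1 was nearly absent from them, and it covered little of the shorter X stretches too. Its peaks touched 30 of the 409 intervals by at least 1 bp (7.33%, Wilson 95% interval 5.19% to 10.3%), against 5.32% of all X stretches. No replicate 1 peak had its midpoint in an interval, a count that was not made for the shorter X stretches. All contact came from peaks that crossed an edge, and the covered length per touched interval ran from 2 to 130 bp with a median of 26.5 bp. In total 1265 bp, or 0.0434% of the interval length, lay in replicate 1 peaks, compared with 0.252% of the length of the shorter X stretches. The rest of the X, which unlike the intervals includes the series-level peaks, was 4.69% covered.

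Replicate 2 reached into most intervals, but for a short distance. Its peaks touched 326 intervals (79.7%, Wilson 95% interval 75.5% to 83.3%), against 80.6% of all X stretches, so the share touched was close to that background. They covered 346360 bp, which is 11.9% of the interval length, compared with 40.4% of the length of the shorter X stretches. The rest of the X, series-level peaks included, was 49.2% covered. The median interval was 8.40% covered (quartiles 5.06% and 15.2%). In 234 intervals less than 10% was covered, and in 15 at least 50% was. These 2 counts were not made for all X stretches, and a peak that crosses an edge covers less of a longer stretch. Peaks of both replicates touched 28 intervals (6.85%, against 4.70% of all X stretches), and neither replicate touched 81 (19.8%, Wilson 95% interval 16.2% to 23.9%, against 18.8% of all X stretches). These intervals cover counting error only and treat intervals as independent.

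The 81 untouched intervals were about as long as the others, with medians of 6567 bp for the untouched and 6486 bp for the 328 touched. Together they spanned 580479 bp. Of the 40 intervals in the first 1 Mb of the X, 11 were untouched (27.5%), compared with 70 of the 369 others (19.0%). The shorter stretches of that 1 Mb were not counted, so the difference is not shown to be particular to the intervals.

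Covered share fell with the length of the stretch in both replicates. In replicate 2, peaks covered 7.06% of the 28 intervals of 10000 bp or longer, 11.4% of the 95 intervals of 7500 to under 10000 bp and 13.3% of the 286 shortest intervals. For stretches that were not members, the share was 23.0% at 2500 to under 5000 bp, 42.9% at 1000 to under 2500 bp and 75.9% under 1000 bp. In replicate 1 the share was 0.00631% in the longest class of intervals, 0.0201% and 0.0631% in the other 2 classes of intervals, and 0.137%, 0.172% and 0.702% in the shorter stretches. A peak that crosses an edge covers a smaller part of a longer stretch, so these shares alone do not describe the interior.

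**Figure D2:**
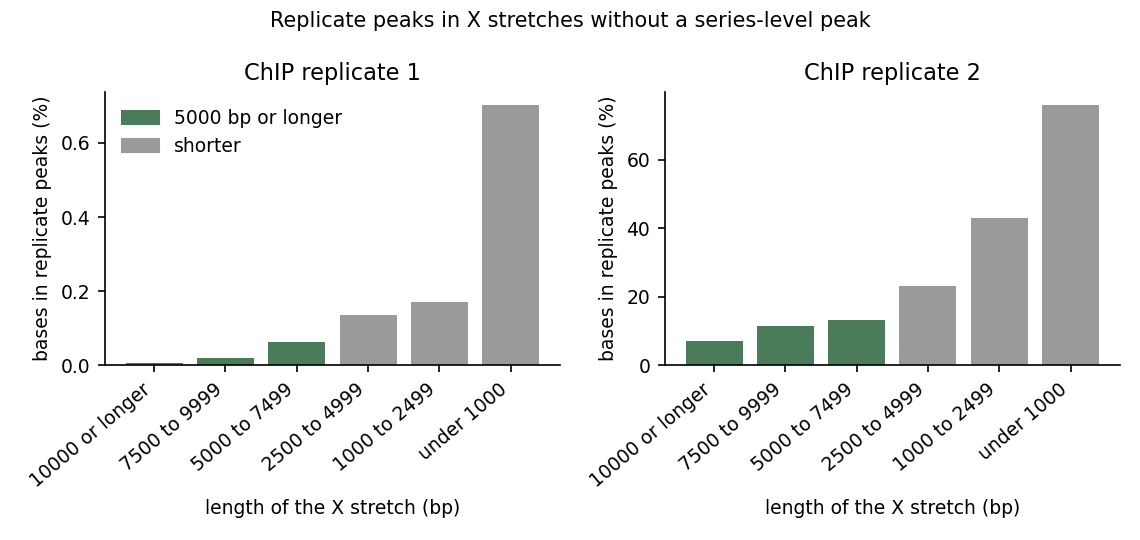
Percent of bases in peaks of ChIP replicate 1 (left panel) and replicate 2 (right panel), on separate vertical scales, in X stretches without a series-level peak grouped by length in bp. Green bars are the intervals of 5000 bp or longer and grey bars the shorter stretches, and the covered share is highest under 1000 bp, at 0.702% in replicate 1 and 75.9% in replicate 2.

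The central 500 bp of each stretch of 1000 bp or longer were therefore measured as well. These windows lie nearer to an edge in a shorter stretch, so the classes still differ in distance from an edge. The longest class rests on only 28 windows. In replicate 2, peaks covered 0% of these windows in the 28 longest intervals, 4.21% in the intervals of 7500 to under 10000 bp and 2.80% in the 286 shortest intervals, compared with 8.74% in stretches of 2500 to under 5000 bp and 28.6% in stretches of 1000 to under 2500 bp. In replicate 1 the central windows of all 409 intervals held no base in a peak, and the 2 shorter classes held 0.0357% and 0.0360%.

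Contact with the intervals was concentrated at their edges. Of the 818 edges, replicate 2 peaks crossed 443 (54.2%), with a median reach into the interval of 501 bp and quartiles of 448.5 and 631 bp. Edge-crossing peaks made up 95.1% of all interval bases covered by replicate 2, and in 118 intervals both edges were crossed. Replicate 1 peaks crossed 30 edges (3.67%) with a median reach of 26.5 bp. The reach was longer at left than at right edges in both lists, at medians of 518 and 479.5 bp in replicate 2 and of 56 and 23 bp in replicate 1, where 21 left and 9 right edges were crossed. Edges of the shorter X stretches were not counted. These shares thus have no background and are not shown to be particular to the intervals.

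Averaged over all edges, 53.9% of bases in the first 250 bp inside an interval lay in replicate 2 peaks. The next 250 bp held 46.8%, the step from 500 to 750 bp held 15.4%, and the step from 2250 to 2500 bp held 3.20%. Outside the intervals the share was 54.2% in the 250 bp next to the edge and 32.1% at 2250 to 2500 bp. Replicate 1 held 0.619% in the first 250 bp inside and 0% in every step beyond, against 10.5% in the 250 bp outside and 14.5% in the 250 bp before those. Steps outside an interval can reach into the next interval. The fall in replicate 2 thus came about 500 bp inside the edge, and that in replicate 1 at the edge. Over its whole list, replicate 1 had a median peak width of 498 bp, and replicate 2 one of 2299 bp.

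**Figure D3:**
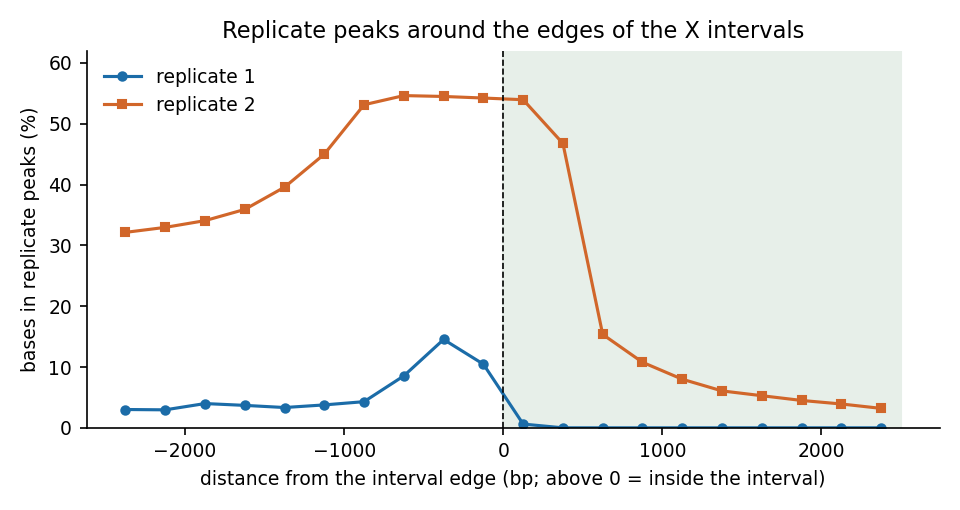
Percent of bases in replicate 1 peaks (circles) and replicate 2 peaks (squares) by distance in bp from the edge of an interval, over both edges of the 409 intervals in steps of 250 bp. The shaded side is inside the interval, where replicate 1 is at 0 beyond 250 bp and replicate 2 is at 46.8% in the step ending at 500 bp and at 15.4% in the next.

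Away from the edges, X intervals still carried more replicate 2 peak sequence than autosomal stretches did. The autosomal stretches made up nearly the whole of each autosome, so the 2 sets are unlike. Of all peaks, 2542 of 2671 in replicate 2 and 1235 of 1463 in replicate 1 lay on the X. With 1000 bp removed from each end, replicate 2 peaks covered 4.15% of the X intervals and 0.0437% of the autosomal stretches of 5000 bp or longer. For replicate 1 the order was the other way round, with 0% in X intervals and 0.101% in autosomal stretches. With whole stretches the shares were 11.9% and 0.199% in replicate 2, and 0.0434% and 0.142% in replicate 1.

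A few intervals were largely filled by replicate 2 peaks. The interval X:16806057-16811607, of 5551 bp, had 5410 bp in replicate 2 peaks, or 97.5%, although its bounding series-level peaks scored only 4.77 and 11.63 and no replicate 1 peak touched it. In X:15568631-15575223, of 6593 bp, replicate 2 covered 78.1%. Its cover included the highest-scoring of the 42 replicate 2 peaks with their midpoint in an interval, a peak of 7369 bp with a replicate 2 score of 1236 and rank 178 of 2542 X peaks. That peak, X:15565988-15573356, began outside the interval and also covered the bounding series-level peak on the left, which scored 73.05. Replicate 1 covered 90 bp of that interval. The interval with the largest replicate 1 share was X:8287144-8292889, of 5746 bp, where replicate 1 covered 130 bp (2.26%) and replicate 2 covered 67.9%. The peak on its left scored 129.29.

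The 42 replicate 2 peaks centred in intervals had a median width of 3198 bp (quartiles 2503 and 4135 bp), compared with 2306 bp (quartiles 1652 and 3482 bp) for the 2500 other X peaks of that list. Their median score was 167.3 (quartiles 91.5 and 379.6), compared with 216.3 (quartiles 103.4 and 520.8), so the scores overlapped widely. A score belongs to the whole peak, and all but 5 of the 42 also reached outside their interval. The 418 replicate 2 peaks that touched an interval anywhere had a median score of 234.9, compared with 211.5 for the 2124 that touched none. Only 5 replicate 2 peaks lay wholly inside an interval, and no replicate 1 peak did. They lay at X:62331-66378 (score 176.93), X:7851688-7855670 (111.92), X:9141109-9143378 (75.83), X:13978805-13983169 (88.28) and X:15621658-15623951 (91.77), and ranked from 1445 to 2178 among the 2542 X peaks of replicate 2. Their distance to the nearest interval edge was between 680 and 3161 bp. All 5 were thus in the lower part of the replicate 2 list, and no replicate 1 peak overlapped them. By the rule they could not overlap a series-level peak.

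Applied to the replicate lists themselves, the same rule gave longer peak-free stretches. Replicate 2 had 670 X stretches of 5000 bp or longer, with a median of 8202 bp, which covered 39.4% of the X. Of the 409 intervals, 351 (85.8%) overlapped one of these by at least 1 bp, against 31.6% of all X stretches, and a longer stretch has more bases with which to overlap. Wholly within one lay 83 (20.3%), against 17.6% of all X stretches. In the other direction, 306 of the 670 (45.7%) overlapped an interval. They held 80.7% of the interval bases. Replicate 1 had 773 such stretches, with a median of 14978 bp, covering 90.8% of the X, and all 409 intervals overlapped one, against 91.7% of all X stretches. Wholly within one lay 379 (92.7%), against 88.3% of all X stretches. An interval that a replicate does not touch lies wholly within such a stretch because of its own length. The counts of 83 and 379 therefore only restate how many intervals each replicate left untouched. A shorter untouched stretch need not lie within one, so the shares over all X stretches are not a like background.

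The peaks beside the intervals were not unusual in score or width. The 409 intervals were bounded by 779 different peaks, because 39 peaks had an interval on both sides. The bounding peaks had a median score of 7.43 (quartiles 4.31 and 16.5) and a median width of 306 bp, compared with 7.04 (quartiles 4.37 and 13.9) and 312 bp for the 8229 other X peaks. In 85 intervals (20.8%) both bounding peaks scored below the X median and in 102 (24.9%) both scored at or above it. The other 222 had 1 bounding peak on each side of the median. These counts were not made for all X stretches. None of the 6 X peaks that share the highest score of 226.42 bounded an interval. The highest-scoring bounding peak, X:15741494-15742326, scored 149.26 and ranked 34 on the X.

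Bounding peaks met replicate 2 less often than other X peaks by these counts, and replicate 1 slightly more often. Replicate 2 peaks overlapped 429 of the 779 bounding peaks (55.1%) and 5742 of the 8229 others (69.8%). Replicate 1 peaks overlapped 124 bounding peaks (15.9%) and 1058 others (12.9%). No replicate peak overlapped 339 bounding peaks (43.5%) and 2410 others (29.3%). Among the 39 peaks with an interval on both sides, 24 (61.5%) had no replicate peak, and their median score was 5.90. These peaks lie by definition where few others are near.

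Intervals were found beside strong sites as well as far from them. The nearest replicate 1 peak lay at a median of 3926 bp from an interval (quartiles 187 and 10242 bp), and at a median of 3883 bp from a shorter stretch (quartiles 674.2 and 9471 bp). It lay within 1000 bp of 141 intervals (34.5%) and of 2390 shorter stretches (27.8%). One of the 451 X peaks in the highest 5% of series-level scores, at 63.6 or more, lay within 1000 bp of 75 intervals (18.3%) and of 1054 of the 8598 shorter stretches (12.3%). The nearest of these 451 peaks lay at a median of 13343 bp from an interval (quartiles 3966 and 33246 bp). From a shorter stretch the median was 12080 bp (quartiles 4438 and 25257 bp), so by the median the intervals were not closer. The interval farthest from a replicate 1 peak was X:15956765-15970836, at 53632 bp.

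Along the X, the first 1 Mb stood apart. It held 40 intervals, which took up 37.1% of its bases, and 352 series-level peaks. Over all 18 bins of 1 Mb the number of intervals had a median of 23.5 and a lowest value of 11, and the share of bases had a median of 16.1% and a lowest value of 6.93%, found between 2 and 3 Mb. The last bin was 718.9 kb long. The bin from 8 to 9 Mb came next after the first, with 36 intervals and 23.6% of its bases. The central 50% of the X held 208 intervals with a median of 6573 bp, and the outer 50% held 201 with a median of 6424 bp.

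Within the first 1 Mb the intervals crowded at the end of the chromosome. The first 300 kb, a boundary chosen after the values were seen, held 18 intervals, which took up 72.4% of its bases. It held 47 series-level peaks, 5 replicate 1 peaks and 11 replicate 2 peaks. Of these 18 intervals 6 were untouched by either replicate, where 81 of all 409 intervals (19.8%) and 18.8% of all X stretches were. The shorter stretches of these 300 kb were not counted. Replicate 2 covered 5.55% of the length of the 18 intervals, compared with 11.9% over all 409.

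The share of a bin in intervals went with low replicate 2 coverage of the whole bin. Replicate 2 peaks covered 31.5% of the first bin, the lowest of all, and 49.5% of the bin from 5 to 6 Mb, the highest, where intervals took up 7.95%. Across the 18 bins Pearson's r between the share in intervals and replicate 2 coverage was -0.86 and Spearman's rho -0.72. Without the first bin they were -0.70 and -0.66. For replicate 1 coverage r was -0.48 and rho -0.45, and -0.43 and -0.39 without the first bin. These values describe bins of 1 chromosome that share the same libraries, and the interval bases themselves are part of each bin.

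**Figure D4:**
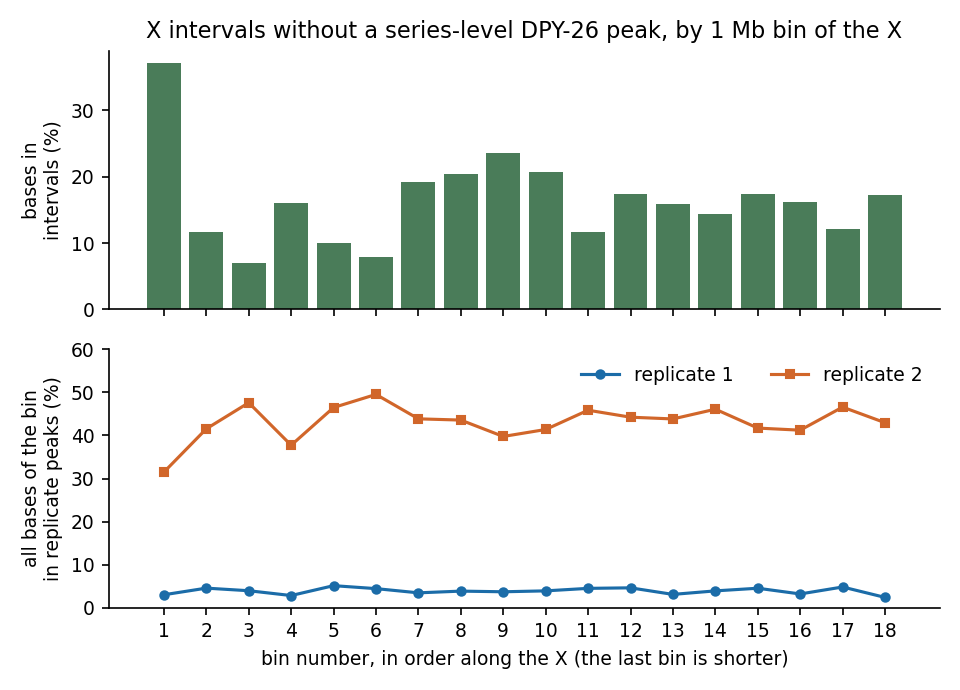
Percent of the bases of each 1 Mb bin of the X in intervals (upper panel) and percent of all bases of the bin in peaks of replicate 1 (circles) and replicate 2 (squares) (lower panel). The first bin has the highest share in intervals, 37.1%, and the lowest replicate 2 coverage, 31.5%.

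The distance between neighbouring intervals varied widely. Between neighbouring intervals the peak-bearing stretch had a median length of 20378 bp (quartiles 6436 and 46477.5 bp) and a median of 11 peaks. A single peak separated 39 of the 408 neighbouring pairs (9.56%), where intervals made up 4.54% of all X stretches. At most 5 peaks separated 136 pairs (33.3%), a wider count for which the 4.54% is no background. The shortest such stretch was a peak of 146 bp at X:15319014-15319159, with a score of 4.42 and no replicate peak, between intervals of 5417 and 7240 bp. The longest run held 6 intervals in a row with 1 peak between each pair, at X:117287-169176. This run was singled out after its values were seen. It spanned 51.9 kb, of which 50757 bp lay in the 6 intervals, and its 5 inner peaks scored between 2.36 and 22.46. Replicate 1 covered none of it, and replicate 2 touched 4 of the 6 intervals.

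At the other extreme, the longest stretch without an interval ran for 313900 bp, at X:5229851-5543750. It held 193 series-level peaks, with a highest score of 129.22, and was met by 29 replicate 1 peaks and 50 replicate 2 peaks. It also lay between 5 and 6 Mb, between intervals of 8948 and 8388 bp.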

How the data were processed

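The deposited files are peak lists that give each peak a start, an end and a score. Per the file headers and source columns, MACS called the replicate peaks and MACS v2 the series-level peaks. Reads were aligned with BWA to ce10, per the submitters' processing notes. The deposited score is the authors' own value. Its scale, the controls, the filters and any pooling of replicates are not stated in the sources used here. Because callers differ, numbers and widths of peaks are not on one scale between the replicate lists and the series-level list. The same caller is named for both replicate lists, and why these differ in number and width of peaks was not tested.

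Overlapping X rows of the series-level list were merged and stretches of 5000 bp or longer between peaks were taken. Overlap meant 1 bp. Percent coverage used merged replicate peaks. Python 3.11.15, numpy 2.4.6, pandas 2.3.3, scipy 1.17.1 and matplotlib 3.10.9 were used. Covered bases were checked on simulated lists and equalled those of bedtools 2.31.1 in all 409 intervals. Chromosome lengths were the largest peak end in the series-level list and were not checked against the build. Regions named by rule were the 10 longest intervals, the longest untouched one, those with the largest cover or highest-scoring peak per replicate, the shortest separation and the stretches nearest the 5000 bp limit. The longest run, the longest separation, the highest-scoring bounding peak, the interval farthest from a replicate 1 peak and the 5 replicate 2 peaks wholly inside intervals were added after their values were seen. The intervals and rules were chosen with earlier results of these data known. Alternatives changed the length limit, the score limit, the overlap rule, the edges, peak widths and the replicates used.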

Additional observations from a re-analysis of the deposited data

How the results depend on the processing

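The number and length of intervals followed the length limit and the peaks that bound them. With limits of 3000, 4000, 7500 and 10000 bp there were 1322, 732, 123 and 28 intervals, with medians of 4184.5, 5188.5, 8747 and 12311 bp. They took up 36.0%, 24.5%, 6.79% and 2.23% of the X. Without the lowest-scoring 25% of series-level peaks there were 685 intervals (29.8% of the X, median 6799 bp), and without the lowest-scoring 50% there were 1009 (50.4%, median 7350 bp).

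For both replicates together, 80.2% of intervals were touched, 11.9% of their length was covered and 42 peaks had their midpoint inside. Trimming 500 or 1000 bp from each end gave 48.9% and 19.3% touched, 5.61% and 4.15% covered, and 18 and 9 peaks. The highest-scoring 50% of each replicate list gave 50.1%, 6.62% and 17. The share touched was 56.0% when 500 bp had to be covered and 3.67% when 50% of the interval had to be, and 5 peaks lay wholly inside. The touched shares after trimming, with the highest-scoring 50% of peaks and under stricter overlap were not computed for all X stretches. Setting replicate 2 peaks to the median width of replicate 1 left 0.910% covered. Limits of 3000 and 10000 bp gave 16.7% and 7.06% covered, and the 4 limits gave 143, 90, 18 and 4 peaks inside. Leaving out one replicate gave 7.33% (replicate 1 alone) to 79.7% (replicate 2 alone) touched, 0.0434% to 11.9% covered and 0 to 42 peaks, so replicate 2 sets these values. The median score of bounding peaks was 7.12 and 6.92 at limits of 7500 and 10000 bp, compared with 7.43 at 5000 bp. Both lay within the 95% binomial interval of 6.88 to 8.11 around 7.43, which treats peaks as independent. The peaks at the longer limits are part of the set that gave 7.43, so this is no independent check. The first bin of 1 Mb held 1.70 times the intervals of the median bin, and 2.55 times with 500 kb bins or 2.32 times by base pairs.

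No paired analysis was possible because input libraries had no peak list in use here, and the results come from no test. The depth behind the lists is unknown, so an interval shows the lack of a called peak, not the lack of DPY-26.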
